A study of Mus musculus with 16 samples.

Results

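Promoter contacts of mouse liver were compared between ZT6, the middle of the light phase, and ZT18, the middle of the dark phase, where ZT (zeitgeber time) counts hours from lights on. The members are the 8 Promoter Capture Hi-C (P-CHi-C) samples of these timepoints, out of 16 in the series, and they enter as 2 merged lists out of 4. Livers came from wild-type males of the inbred strain C57BL/6, which had food at all times under 12 h of light and 12 h of dark. The labels give their age as 8 weeks, while the methods give that age for mice then kept under this cycle for 2 weeks. At either timepoint 3 pools of 2 livers (A, B and C) were collected, and pool A was sequenced in 2 lanes, which accounts for 4 samples per timepoint. Both groups shared strain, sex, age, feeding and genotype, and differed by the time at which the livers were taken. In the sample titles, matching samples of the 2 timepoints also carry different lane numbers, so lane and time cannot be told apart. Chromatin was cut with HindIII and ligated in nuclei, and ligation products that held a promoter fragment, the bait, were pulled down with RNA probes. Whole livers were used, so contacts of hepatocytes and of the other cells of the liver are summed.

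The pools had been merged before contacts were scored, so each timepoint has 1 value, there is no replicate error and nothing below carries a test. A contact here means 2 HindIII fragments that together reached a CHiCAGO score of 5, in either order. The score sets the observed reads against those that distance and technical noise would give, and a pair that scores under 5 is absent from a list. Absence is therefore not a measure of few reads. Intervals are 95% Wilson intervals, or order-statistic intervals for medians. They cover counting error only, and contacts that share a bait are not independent. A summary of totals supplied with the study puts the totals of the lists labelled ZT6, ZT12 and ZT18 under other timepoints. The sample labels were followed, which are also the times the study's text uses for the contacts of Arntl. In the other order the list labelled ZT12 stands for ZT6 and the list labelled ZT6 for ZT18. Summed shares and counts that were also run in that order are marked where they turn. All other results, among them single baits, single pairs and the gradients by GC content and distance, follow the labels alone. Their direction depends on those labels.

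Mice rest and eat little in the light phase and are active and feed in the dark phase. The liver clock is a feedback loop in which Clock, Npas2 and Arntl (Bmal1) activate genes that carry an E-box, among them the Per and Cry repressors and the nuclear receptors Nr1d1 and Nr1d2, while Ror receptors and Nr1d1 act in opposite directions on ROR elements. Factors such as Dbp bind D-boxes. The loop and the feeding rhythm together drive daily changes in glucose, lipid, cholesterol and bile acid metabolism. Promoters reach distant regulatory elements and other promoters by looping, which is what the captured contacts record.

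The promoters below are those of protein-coding genes on which results turn, with Lonp1 and Serpinc1 from baits with more contacts at ZT6, Hras1 and Shmt2 from baits with more contacts at ZT18, and Per1, Cry1 and Per3 from the clock. Each runs 5′ to 3′ over 250 bases before the annotated start and 50 from the start on, read from build mm9. Capitals mark the E-box CACGTG and the D-box TTATGNAA, sought on both strands. Of 22367 promoter windows of protein-coding genes, 7.78% held the E-box and 3.39% the D-box.
Lonp1, chr17:56766277-56766576, minus strand: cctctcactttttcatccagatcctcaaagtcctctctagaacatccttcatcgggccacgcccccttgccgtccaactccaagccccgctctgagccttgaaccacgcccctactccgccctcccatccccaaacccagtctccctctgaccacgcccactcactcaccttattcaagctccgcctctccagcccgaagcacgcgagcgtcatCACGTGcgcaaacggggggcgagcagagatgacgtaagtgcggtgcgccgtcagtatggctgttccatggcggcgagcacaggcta
Serpinc1, chr1:162908487-162908786, plus strand: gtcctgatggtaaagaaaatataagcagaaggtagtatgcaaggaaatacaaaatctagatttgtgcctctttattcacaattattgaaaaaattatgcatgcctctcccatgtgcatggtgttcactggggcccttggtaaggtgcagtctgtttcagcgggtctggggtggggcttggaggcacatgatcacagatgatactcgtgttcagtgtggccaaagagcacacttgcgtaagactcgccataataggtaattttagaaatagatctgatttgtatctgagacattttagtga
Hras1, chr7:148379855-148380154, minus strand: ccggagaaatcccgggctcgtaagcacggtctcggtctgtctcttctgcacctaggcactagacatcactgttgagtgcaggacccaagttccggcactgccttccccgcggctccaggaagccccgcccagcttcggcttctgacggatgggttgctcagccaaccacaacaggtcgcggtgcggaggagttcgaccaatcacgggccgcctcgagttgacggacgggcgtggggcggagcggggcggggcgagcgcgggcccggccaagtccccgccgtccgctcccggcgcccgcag
Shmt2, chr10:126959442-126959741, minus strand: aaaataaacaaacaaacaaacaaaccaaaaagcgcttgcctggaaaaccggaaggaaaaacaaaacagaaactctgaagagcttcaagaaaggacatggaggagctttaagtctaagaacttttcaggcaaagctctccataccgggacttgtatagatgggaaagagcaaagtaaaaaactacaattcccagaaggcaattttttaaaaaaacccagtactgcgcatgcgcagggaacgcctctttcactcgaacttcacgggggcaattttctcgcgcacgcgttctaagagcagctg
Per1, chr11:68908469-68908768, plus strand: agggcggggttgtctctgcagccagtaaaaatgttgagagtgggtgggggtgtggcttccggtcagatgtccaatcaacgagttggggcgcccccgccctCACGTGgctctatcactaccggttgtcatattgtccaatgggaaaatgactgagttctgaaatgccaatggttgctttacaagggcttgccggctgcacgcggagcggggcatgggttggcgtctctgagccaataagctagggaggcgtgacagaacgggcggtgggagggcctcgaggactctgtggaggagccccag
Cry1, chr10:84647750-84648049, minus strand: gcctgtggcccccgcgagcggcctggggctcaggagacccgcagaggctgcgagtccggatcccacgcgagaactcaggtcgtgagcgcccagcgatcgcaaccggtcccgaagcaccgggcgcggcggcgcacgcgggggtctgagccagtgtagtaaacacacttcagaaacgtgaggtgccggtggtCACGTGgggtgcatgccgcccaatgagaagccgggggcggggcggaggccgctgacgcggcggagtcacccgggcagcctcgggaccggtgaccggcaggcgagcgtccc
Per3, chr4:150418725-150419024, minus strand: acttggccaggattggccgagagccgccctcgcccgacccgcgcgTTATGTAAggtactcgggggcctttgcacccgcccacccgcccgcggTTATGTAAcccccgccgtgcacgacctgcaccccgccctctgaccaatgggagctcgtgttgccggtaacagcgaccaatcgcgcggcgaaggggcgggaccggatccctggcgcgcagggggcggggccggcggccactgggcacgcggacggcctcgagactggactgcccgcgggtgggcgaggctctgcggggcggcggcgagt
The E-box was present in the windows of Lonp1, Per1 and Cry1, and the window of Per3 held the D-box at 2 places. None of the 6 motifs searched was found in the windows of Serpinc1, Hras1 or Shmt2. CpG dinucleotides in these windows ran from 4 in Serpinc1 to 41 in Per3, where GC content was 73.3%. A match is a description of these letters and not of a bound factor.

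The ZT6 list held 154775 contacts and the ZT18 list 151347. Of the 199673 contacts in either list, 106449 or 53.3% (53.1 to 53.5) were in both. They made up 68.8% of the ZT6 list and 70.3% of the ZT18 list. Of 17491 baits with a contact at either time, 7375 had more contacts at ZT6, 6946 had more at ZT18 and 3170 had equal numbers. For 67.2% of them the numbers differed by at most 2. The extremes were 59 more contacts at ZT6 and 47 more at ZT18.

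**Figure D1:**
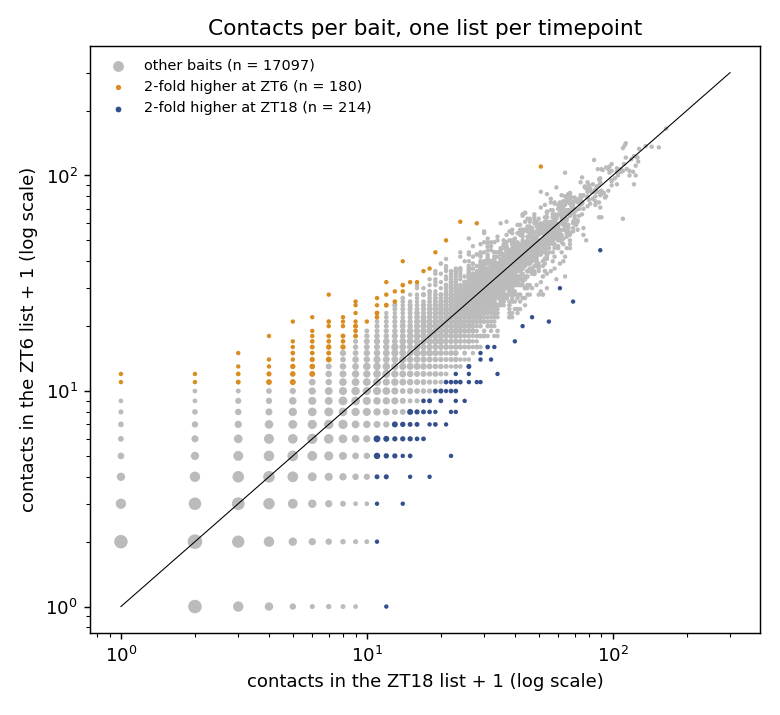
Contacts of each bait in the ZT18 list (x axis) and the ZT6 list (y axis), both plus 1 on log scales, with the line of equal numbers; larger points stand for more baits with the same pair of values, and colours mark the 180 baits that were 2-fold higher at ZT6 and the 214 that were 2-fold higher at ZT18. Most baits lie along the line, and those marked are a thin margin on either side.

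A bait was taken as higher at one time if it had at least 10 contacts there and at least 2-fold the share of contacts at the other, after division by the list totals. At ZT6, 180 of 5836 baits with 10 contacts met this rule, which is 3.08%. At ZT18, 214 of 5761 did, which is 3.71%. With neighbouring fragments merged into 1 contact the numbers were 116 and 69, and without division by the list totals they were 257 and 214, so which time had more baits turned with either choice. The rule is a description of size: the bait of Aqp3, with 31 contacts against 15, fell just inside it at 2.021-fold, and that of AC115798.1, with 16 against 8, fell just outside at 1.956-fold. At ZT18 the corresponding baits were a U6 copy at 2.045-fold and Il6ra, the interleukin 6 receptor, at 1.985-fold. Another 120 baits at ZT6 and 85 at ZT18 lay between 1.8-fold and the threshold.

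The bait with the largest excess at ZT6 lies inside Onecut1, the gene of a transcription factor of hepatocytes and bile duct cells, and takes its name AC100600.1 from a predicted microRNA (chr9:74718250-74719458). Its contacts numbered 109 at ZT6 and 50 at ZT18, with 81 at ZT0 and 88 at ZT12. Of the 50 at ZT18, 47 were also listed at ZT6. Of the 62 that ZT6 added, 30 were in the ZT0 list and 35 in the ZT12 list. The added contacts reached further, with a median distance of 474 kb over its ZT6 contacts against 341 kb over its ZT18 contacts. A shared contact 728 kb away, within Wdr72, scored 49.87 at ZT6 and 6.14 at ZT18, with 19.12 at ZT0 and 28.63 at ZT12. The separate bait at the start of Onecut1 followed the same order at ZT6 and ZT18, with 51, 64, 51 and 42 contacts from ZT0 to ZT18. It stayed under the 2-fold rule at 1.49-fold.

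Ncoa2, a coactivator of nuclear receptors, had 60 contacts at ZT6 and 23 at ZT18, with 33 at ZT0 and 34 at ZT12. Most of its strongest partners lay within its own long gene, as at 6.98 kb (13.00 at ZT6, 9.10 at ZT18). The bait at the start of Tram1, 214 kb away, scored 12.02 and 10.37. ZT6 stood apart from the other 3 lists for this bait. The same held for Lonp1, a mitochondrial protease, with 7, 27, 9 and 6 contacts, a 4.40-fold difference and the largest fold among the 10 leading baits. Of the 22 Lonp1 contacts added at ZT6, only 1 was in the ZT0 list and 1 in the ZT12 list. Of its 27 contacts at ZT6, 5 scored 7 or more. Fragments in Tmem146 at 36.9 kb (6.83) and in Safb2 at 40.1 kb (6.40) were listed at ZT6 alone, whereas the strongest contact, in Tmem146 at 41.9 kb, was in all 4 lists (15.34 at ZT6, 8.81 at ZT18).

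Serpinc1 encodes antithrombin, an inhibitor of clotting that the liver secretes. It had 31 contacts at ZT6 and 11 at ZT18, with 9 at ZT0 and 28 at ZT12, so the high values were those of ZT6 and ZT12. Its contact with the start of Zbtb37 and the Gas5 small nucleolar RNA host gene, 58.0 kb away, scored 8.59 at ZT6, 10.99 at ZT12 and 8.21 at ZT18 and was absent at ZT0. Gm17664, which lies in Egfr, the receptor of epidermal growth factor, had the same pattern with 28, 59, 53 and 27 contacts from ZT0 to ZT18. Atp6v0a1, a subunit of the proton pump of lysosomes, had 28, 39, 28 and 13 contacts, with ZT0 and ZT12 equal and between the others. The other 4 of the 10 leading baits were named for small RNA copies: SNORA67 in Snrnp70 (49 against 20 contacts), U6 copies in Akap13 (43 against 18) and Slain2 (36 against 17), and a U1 copy in Lrba (35 against 16).

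At ZT18 the largest excess was at Lrrc68 on chromosome 7, with 84, 44, 63 and 88 contacts from ZT0 to ZT18, so that ZT6 was low and ZT0 close to ZT18. Of the 53 contacts that ZT18 added to those of ZT6, 37 were listed at ZT0. Snord69, in the nucleolar protein gene Gnl3, had 44, 25, 28 and 68 contacts. The bait shared by Hras1, a small GTPase, and Lrrc56 had 27, 20, 35 and 54. Other promoters were 13 of its 20 partners at ZT6 and 25 of 54 at ZT18, the strongest at ZT18 being that of Ifitm6, an interferon-induced membrane protein, at a score of 19.34 against 6.16 at ZT6. The bait of Lin37, Psenen and U2af1l4 had 28, 29, 42 and 60 contacts.

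Shmt2, the mitochondrial serine hydroxymethyltransferase that feeds one-carbon metabolism, had 15, 13, 22 and 31 contacts. Its contact with Nxph4, 8.46 kb away, scored 11.48 at ZT6 and 16.38 at ZT18, and that with the start of Stat6 was absent at ZT6 and scored 7.71 at ZT18, although a fragment within Stat6 at 136 kb was listed at both (5.24 and 8.37). The bait of Serpina5 and Serpina3a, secreted serine protease inhibitors, had 29, 19, 42 and 42 contacts and was as high at ZT12 as at ZT18. Hyi, a hydroxypyruvate isomerase, had 23, 11, 27 and 33 contacts, with the promoter of Tie1, an endothelial receptor, as its strongest partner at both times (29.80 at ZT6, 40.36 at ZT18). The remaining 3 were Gm17179 (16 against 39), a U1 copy on chromosome 3 (10 against 28) and the bait of Gm7008 and Mir1938 (21 against 46).

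**Figure D2:**
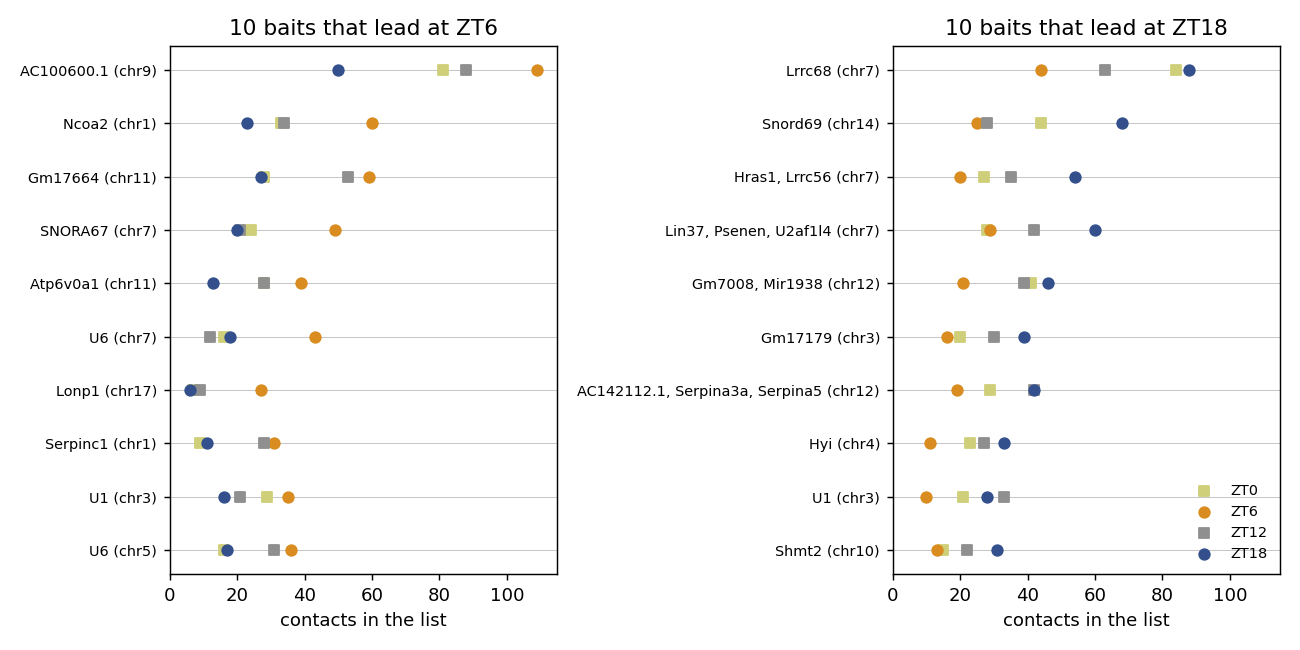
Number of contacts (x axis) in the ZT0, ZT6, ZT12 and ZT18 lists for the 10 baits with the largest excess at ZT6 (left) and at ZT18 (right), 1 value per list; points with equal values lie on top of each other. The ZT0 and ZT12 points mostly lie between those of ZT6 and ZT18, which the choice of baits favours. ZT6 lies apart from the other lists for Ncoa2, Lonp1, SNORA67 and the U6 copy on chromosome 7, among others.

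Across the 180 baits higher at ZT6, ZT6 was the highest of the 4 lists in 156, ZT0 in 16 and ZT12 in 8. Across the 214 higher at ZT18, ZT18 was the highest in 169, ZT12 in 26 and ZT0 in 19. The contacts of the first group summed to 1829, 3025, 1835 and 1166 from ZT0 to ZT18, so ZT0 and ZT12 were alike. Those of the second summed to 2250, 1452, 2660 and 3410, with ZT12 above ZT0. ZT12 exceeded ZT0, relative to list totals, for 79 of the 180 and for 132 of the 214, beside 3240 of all 6500 baits with 10 contacts at ZT6 or ZT18. Baits chosen for extremes at ZT6 and ZT18 are bound to hold their extremes there. The choice also favours ZT0 and ZT12 values that lie between them. Only the comparison of ZT12 with ZT0 did not enter the choice.

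The 2 groups of baits differed in sequence and position, which the rule did not use. Median GC content of the bait fragment was 44.7% (quartiles 42.6 to 48.5) for baits higher at ZT6 and 51.4% (48.2 to 54.8) for baits higher at ZT18, with 48.4% over the 6500 baits. Protein-coding starts within 500 kb numbered 12.0, 27.0 and 17.0 at the median. In the lowest GC tertile of these baits, up to 46.2%, 109 of 2167 were higher at ZT6 and 30 at ZT18. In the highest, above 50.7%, 20 of 2167 were higher at ZT6 and 121 at ZT18. GC content and gene density run together along chromosomes, and library preparation and capture can depend on GC content. The part of either in these differences was not tested, and the gene lists below are given with the GC content of their baits.

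The same gradient was seen over all contacts. Baits of the lowest GC tertile of all baits held 25.9%, 26.9%, 24.4% and 24.5% of the contacts at ZT0, ZT6, ZT12 and ZT18, and those of the highest held 40.5%, 39.3%, 41.8% and 42.1%. The ZT6 list was thus at one end and the ZT12 and ZT18 lists near the other. In the other order of timepoints the lowest tertile would hold 24.4% at ZT6 and 26.9% at ZT18, so this gradient turns. By the labels, distance added to the gradient. Contacts listed at ZT6 made up 47.3% (46.7 to 47.9) of those listed at either time under 25 kb, counting a contact in both lists at both, 50.9% (50.6 to 51.2) from 100 to 250 kb and 53.9% (53.1 to 54.7) from 500 to 1000 kb. For low-GC baits the share went from 50.9% under 100 kb to 54.2% over 250 kb, and for high-GC baits it was 47.0% under 100 kb and 49.1% from 100 to 250 kb. By chromosome the share ranged from 49.2% on chromosome 15, where the mean bait GC content was 48.9%, to 53.0% on chromosome X, where it was 45.1%.

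**Figure D3:**
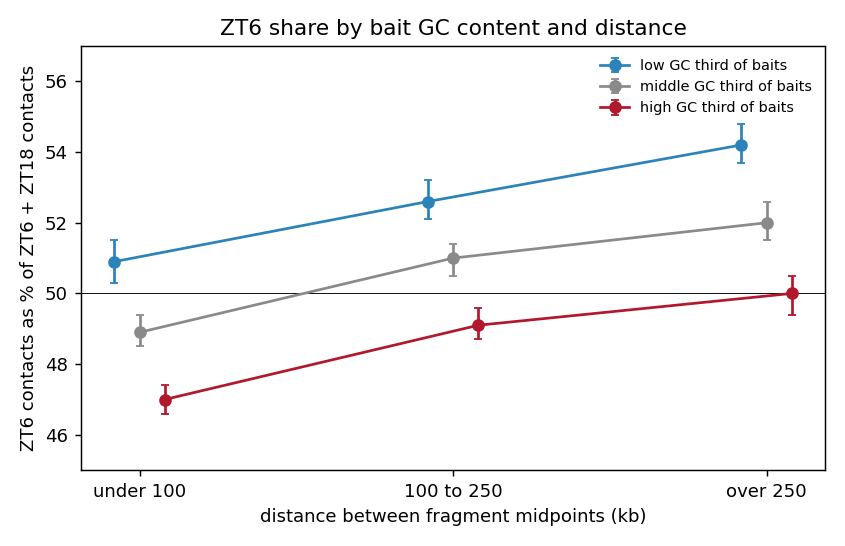
Contacts listed at ZT6 as a percentage of ZT6 plus ZT18 contacts (y axis) by distance between fragment midpoints (x axis, kb), for the low, middle and high GC tertiles of all baits; bars are 95% Wilson intervals for counting error. The percentage rose with distance in each tertile and was highest for low-GC baits, from 50.9% to 54.2%.

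Of the 77247 contacts with a score of 7 or more at ZT6, 9259 were absent at ZT18, which is 12.0%. Of the 75834 at ZT18, 7749 were absent at ZT6, which is 10.2%. In the other order of timepoints the numbers were 7635 and 8952, so which time had more turned. Most of these lay near the threshold: 55.7% of the ZT6 contacts and 58.8% of the ZT18 contacts scored under 8. The share absent from the other list fell with score in both directions. Just outside the threshold, from 6 to 7, it was 39.6% at ZT6 and 37.9% at ZT18, and just inside, from 7 to 8, it was 25.9% and 23.5%. From 10 to 15 it was 3.66% and 2.63%, and at 20 or more it was 0.293% (16 of 5452) and 0.0755% (4 of 5301).

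**Figure D4:**
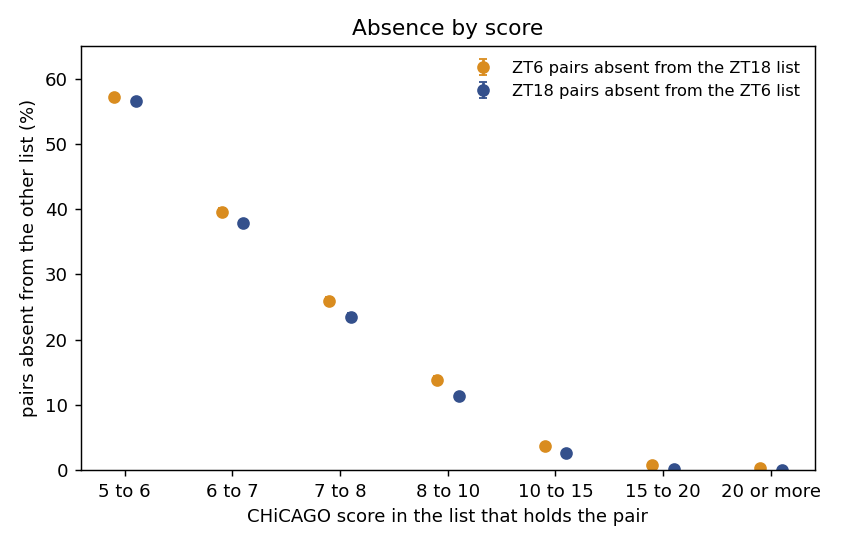
Percentage of contacts absent from the other list (y axis) by CHiCAGO score in the list that holds them (x axis), for ZT6 contacts absent at ZT18 and ZT18 contacts absent at ZT6; bars are 95% Wilson intervals for counting error, 1 list per timepoint. The percentage fell from 57.2% and 56.5% at scores of 5 to 6 to under 1% from a score of 15.

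Many of these contacts had a neighbour in the other list. At the same bait, another fragment within 10 kb was listed at ZT18 for 78.2% of the ZT6 contacts, and at ZT6 for 77.8% of the ZT18 contacts. For 40.9% and 31.7%, one of the fragments appeared nowhere in the other list. Of the 9259 contacts strong at ZT6 and absent at ZT18, 52.0% (51.0 to 53.0) were listed at ZT0 and 51.5% (50.5 to 52.5) at ZT12, while 30.3% were at neither. Of the 7749 strong at ZT18, 53.8% (52.7 to 54.9) were listed at ZT0, 59.5% (58.4 to 60.6) at ZT12 and 25.2% at neither. All strong contacts of the same lists were found at ZT0 in 87.7% and 88.7% and at ZT12 in 88.4% and 90.6%. They are not matched for score, as 25.8% and 25.5% of them scored under 8, against 55.7% and 58.8% of the one-list contacts. The one-list contacts were also chosen for absence from a list. The ZT0 and ZT12 shares of a set come from the same contacts, so their intervals do not measure the difference between them. The ZT12 list was also longer, with 151529 contacts against 146262 at ZT0.

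ZT6-only contacts spanned a median of 230 kb (225 to 235), beside 144 kb for all strong ZT6 contacts. ZT18-only contacts spanned 193 kb (189 to 198), beside 135 kb. Contacts between 2 baits were 15.3% of the ZT6-only contacts against 17.2% of all strong ZT6 contacts, and 22.0% of the ZT18-only contacts against 18.9% of all strong ZT18 contacts. Under 25 kb lay 1.13% of the ZT6-only contacts against 6.60% of all strong ZT6 contacts, and 3.92% of the ZT18-only contacts against 7.68% at ZT18. The contacted fragments that were no bait had a median GC content of 43.5% at ZT6 and 45.6% at ZT18, beside 44.8% and 45.2% over all strong contacts.

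The 10 highest-scoring ZT6-only contacts came from few loci. A bait on chromosome 11 that holds Gm11399 and Gm11400, beside the centrosomal gene Sfi1, was listed with a fragment on chromosome 5 in Gm2420 (chr5:33073588-33073916) at 578.99, and the Sfi1 bait with the same fragment at 170.95. At ZT0 these scored 595.14 and 164.06, and at ZT12 both were absent. The chromosome 5 fragment appeared nowhere in the ZT18 list, while both baits kept other contacts there, 15 and 20. Contacts between chromosomes made up only 0.0958% of strong ZT6 contacts, yet 3 of these 10.

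The remaining 7 lay within a chromosome. The baits of Dscr3 and of Dyrk1a, a protein kinase, lay 45.4 kb apart and had a contact of 51.88 at ZT6 that no other list held, and the Dscr3 bait had no contact at ZT18. Ndufa6, a subunit of respiratory complex I, was listed with AC113593.1 at 35.12, with 18.91 at ZT0. Tax1bp1, an autophagy receptor, was listed with Hibadh, a mitochondrial dehydrogenase of valine breakdown, at 33.07 at ZT6, 31.76 at ZT0 and 15.80 at ZT12, and with SNORA32 at 23.73. Its bait had 4, 7, 4 and 0 contacts, so all contacts of Tax1bp1 were missing at ZT18. For 6 of the 10 leading contacts, among them Dscr3 with Dyrk1a, another fragment within 10 kb was listed at ZT18 at a bait of the pair. In 9 of the 10 contacts 1 of the fragments appeared nowhere in the ZT18 list. The exception joined a histone bait with a fragment 2365 kb away on chromosome 13 (24.26 at ZT6, 10.94 at ZT0, 11.76 at ZT12).

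Ugt1a1 encodes the enzyme that conjugates bilirubin for excretion in bile, and its locus led in both directions. At ZT6 its bait was listed with fragments in Hjurp, 53.4 kb away, at 27.92, in Heatr7b1, 42.4 kb away, at 23.48, and on chromosome 10 at 27.22, all absent at ZT18. At ZT18 a fragment at chr1:90119291-90123499 was listed with the Ugt1a1 bait at 27.84, 12.3 kb away, and with the bait of Hjurp and Trpm8 at 34.94. Neither contact was in another list. Except for the contact with chromosome 10, each of these had another fragment within 10 kb listed at the opposite time at a bait of the pair. The Ugt1a1 bait had 38 contacts at ZT6 and 33 at ZT18, a difference of 5.

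The other 8 of the 10 strongest ZT18-only contacts included 3 from histone baits on chromosome 13, over 1639, 1721 and 1849 kb. The bait of Hist1h2ag and Hist1h4i and that of Hist1h1a, Hist1h3a and Hist1h4a were joined at 21.48 at ZT18, 9.62 at ZT0 and 5.60 at ZT12. Fth1, the heavy chain of the iron store ferritin, and Fads1, a fatty acid desaturase, were 203 kb apart and scored 7.61, absent, 9.29 and 16.23 from ZT0 to ZT18. Sec61a1, a channel of the endoplasmic reticulum, was joined with the splicing factor gene Isy1, 683 kb away, at 19.79, with 6.58 at ZT0 and 14.64 at ZT12. Igf2bp3, which encodes an RNA-binding protein, and Hoxa6, a homeobox gene, were joined over 2994 kb at 17.05. Pex26, a peroxisome assembly factor, was listed with a fragment in Bid, a regulator of apoptosis, at 17.28. A single one of the 10 was between chromosomes, from the Sfi1 bait to chromosome 9 (23.23). Of these 10 contacts 7 were listed at both ZT0 and ZT12, against 5 of the 10 at ZT6. For 8 of these 10 ZT18-only contacts, another fragment within 10 kb was listed at ZT6 at a bait of the pair.

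Strong contacts listed at a single one of the 4 times were fewer. With a score of 10 or more, 140 contacts were listed at ZT6 alone and 71 at ZT18 alone, out of 874 and 587 absent from the opposite list. The 140 fell on 166 baits, and 154 of those had 1 such contact. Lamb2, a laminin chain of basement membranes, had the most, with 6, and was picked for that. Its contacts numbered 6, 28, 9 and 12 from ZT0 to ZT18, and 1 was common to ZT6 and ZT18. At ZT6, 24 of the 28 joined other promoters, as with Rbm6 at 21.94, and at ZT18 none of the 12 did.

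Some baits had contacts in one list and none in the other, which means none with a score of 5 or more. With 5 or more contacts at one time and none at the other, there were 27 of the 16487 baits listed at ZT6. At ZT18 there were 16 of the 16481 baits listed. Olfr1162, an olfactory receptor gene, had 11 contacts at ZT6 and none at any other time, and the bait of Ccdc32 and Rpusd2 had 10 and none. Olfr1018 and Olfr1099 were also among the 27, and the share of olfactory receptor genes over all baits was not counted. Cyp1b1, a cytochrome P450, had 1, 5, 2 and 0 contacts, and Pigc, an enzyme of lipid anchor synthesis, 8, 8, 4 and 0. At ZT18, Tnnc1, a troponin, had 3, 0, 2 and 11. Hpd, an enzyme of tyrosine breakdown, had 0, 0, 4 and 6 contacts, Masp1, a complement protease, 3, 0, 7 and 6, and Scly, a selenocysteine lyase, 1, 0, 5 and 6. Over the 4 lists, 351 baits were listed at ZT6 alone and 279 at ZT18 alone, so a bait present in 1 list was not rare at low numbers.

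Of 15 core clock genes, 13 had a bait, and none met the 2-fold rule. Their contacts numbered 180 at ZT6 and 193 at ZT18, which puts 48.3% (43.2 to 53.3) at ZT6, beside 50.3% (50.1 to 50.4) over all baits. Bhlhe40 alone held 106 and 113 of them, so the summed share is weighted towards that bait. In the other order of timepoints the share was 55.0%, beside 49.7% over all baits, so its side turned. Median bait GC content was 51.3%, beside 47.3%. More contacts were listed at ZT6 for 6 members and at ZT18 for 7. Rora and Ciart had no bait at the annotated gene start.

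Among the activators, Arntl had 3, 0, 0 and 2 contacts from ZT0 to ZT18. Both ZT18 contacts lay inside the gene, at 39.6 and 50.6 kb, scored 5.43 and 6.28, and were also the strongest at ZT0, at 6.12 and 7.72. Clock had a single contact, at ZT18, with Tmem165 (5.21). Npas2, the paralog of Clock, had 14, 8, 8 and 12 contacts, and most of its partners scored less at ZT6 than at ZT0 or ZT18, as with the fragment at 90.5 kb (12.38, 7.44, 6.08 and 11.90).

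Among the repressors, Per1 had 5, 7, 19 and 12 contacts and Per2 9, 10, 19 and 13, so both were highest at ZT12. The Per1 bait was joined at ZT18 with a fragment inside Kdm6b, a histone demethylase, 315 kb away, at 9.82, and at ZT12 at 9.24, while this contact was absent at ZT0 and ZT6. The neighbouring fragment, at the Kdm6b start, was listed at ZT6 as well (6.01). Per2 kept its strongest partner, the start of the Notch target Hes6 at 35.0 kb, at 14.55, 16.17, 18.01 and 15.84. Per3 had 4, 6, 4 and 3 contacts. Cry2 had 5, 12, 7 and 7 and was highest at ZT6, where its contact with Phf21a at 137 kb scored 10.70, against 7.05 at ZT18. Cry1 had 1, 2, 0 and 0.

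Of the receptors and basic helix-loop-helix factors, Nr1d1 had 6, 10, 9 and 8 contacts, with SNORD124 as its strongest partner (14.22 and 11.42). Nr1d2 had 2, 3, 1 and 1. Bhlhe40 had 108, 106, 128 and 113, of which 92 were common to ZT6 and ZT18, and Bhlhe41 had 14, 4, 8 and 3.

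Over the 12 lists of genes, 147 of 165 genes had a bait. In the other order of timepoints, 11 of the 14 shares examined (these 12 lists and 2 of the circadian groups) moved to the opposite side of all baits. The direction of those 11 is therefore not firm. The summed shares of clock output factors, lipogenesis and bile acids kept their side, but their intervals include the 50.3% of all baits. Of the 73 baits of the 12 lists with 10 contacts at ZT6, none met the rule there. Of their 78 at ZT18, 5 did or 6.41%, beside 3.71% of all baits. Among them were Rbm3, Apoe, Ppara and Idi1. Rbm3, a cold-inducible RNA-binding protein, had 17, 13, 25 and 28 contacts from ZT0 to ZT18, and its bait also holds 2900002K06Rik. Apoe, an apolipoprotein of remnant particles, had 21, 10, 24 and 25, so ZT6 was the list apart, and its contact with Apoc2 and Apoc4 at 18.9 kb was kept (22.72 at ZT6, 34.54 at ZT18). Ppara, the receptor that drives fatty acid oxidation in fasting, had 6, 9, 17 and 19, and its strongest contact, with a transcript start in its own gene at 35.1 kb, scored 10.06 at ZT6 and 11.95 at ZT18. Idi1, an isomerase of cholesterol synthesis, had 6, 4, 18 and 12, with Larp4b, 210 kb away, absent at ZT6 and at 13.92 at ZT18, and the adjacent fragment, at 213 kb, in the opposite state (6.09 and absent).

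In the lipogenesis list 10 of 12 baits had more contacts at ZT18 and 2 had more at ZT6, beside 6946 and 7375 over all baits. The median difference was -2.50 contacts (ZT6 minus ZT18), beside 0 over all baits, and the median GC content 48.1%. Acaca, acetyl-CoA carboxylase, had 20, 12, 14 and 20 contacts and Fasn, fatty acid synthase, 21, 22, 22 and 27. The exceptions were the elongases Elovl5 (86, 106, 80 and 86) and Elovl6 (27, 34, 31 and 29). They hold so many contacts that the summed share at ZT6 was 49.1% (44.3 to 54.0), close to that of all baits. In the other order of timepoints the lean by number of baits was not kept. There Acaca, Acly, Scd1, Srebf1, Gpam and Pnpla3 would have more contacts at ZT6. Fasn, Thrsp and Mlxipl would be equal, and Elovl5, Elovl6 and Me1 would have more at ZT18.

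Cholesterol synthesis and uptake had the lowest share at ZT6, 44.9% (37.7 to 52.3) of 79 and 97 contacts, and an interval that includes 50.3%. It had the highest, 57.5%, in the other order. Its median bait GC content was 48.9%. In gluconeogenesis and fasting, 2 baits had more at ZT6, 6 at ZT18 and 3 were equal, at a GC content of 52.9%. The share was 48.2%, and 54.7% in the other order. Pck1, the rate-limiting enzyme of gluconeogenesis, had 11, 10, 13 and 18, and Foxo1, its regulator, 72, 96, 112 and 88. For bile acids, with a GC content of 44.2%, Abcb11, the bile salt exporter, had 28, 24, 24 and 33 and Abcb4, a phospholipid exporter, 14, 19, 12 and 11, while Cyp7a1, the rate-limiting enzyme of bile acid synthesis, had 15 and 18 at ZT6 and ZT18.

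The shares of the other lists lay between 46.5% (heat shock and protein folding) and 50.9% (clock output factors), and each interval included 50.3%. Median bait GC content was 46.5% for glycogen, 46.9% for markers of other liver cells, 47.3% for secreted proteins, 48.8% for fatty acid oxidation, 49.8% for heat shock, 50.6% for clock output and 51.0% for hepatocyte transcription factors. Cirbp, the other cold-inducible protein, had 14, 17, 18 and 26 contacts. Dbp had 11, 25, 24 and 19, and Klf15, a fasting-induced factor, 11, 10, 18 and 16. Hepatocyte transcription factors held 50.7% (46.9 to 54.4), although 10 of 15 had more contacts at ZT18, with Onecut1 and Foxa2 (10, 14, 11 and 8) on the other side. Secreted proteins held 49.7% (45.7 to 53.6), as with Alb, albumin, at 17 and 16. Markers of other liver cells held 47.1% of 65 and 73 contacts, with an interval reaching 55.4%, and the Kupffer cell marker Clec4f had 0 at ZT6 and 1 at ZT18. The assay reads contacts and not RNA, so these markers describe chromatin of the mixed tissue and no share of cells.

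**Figure D5:**
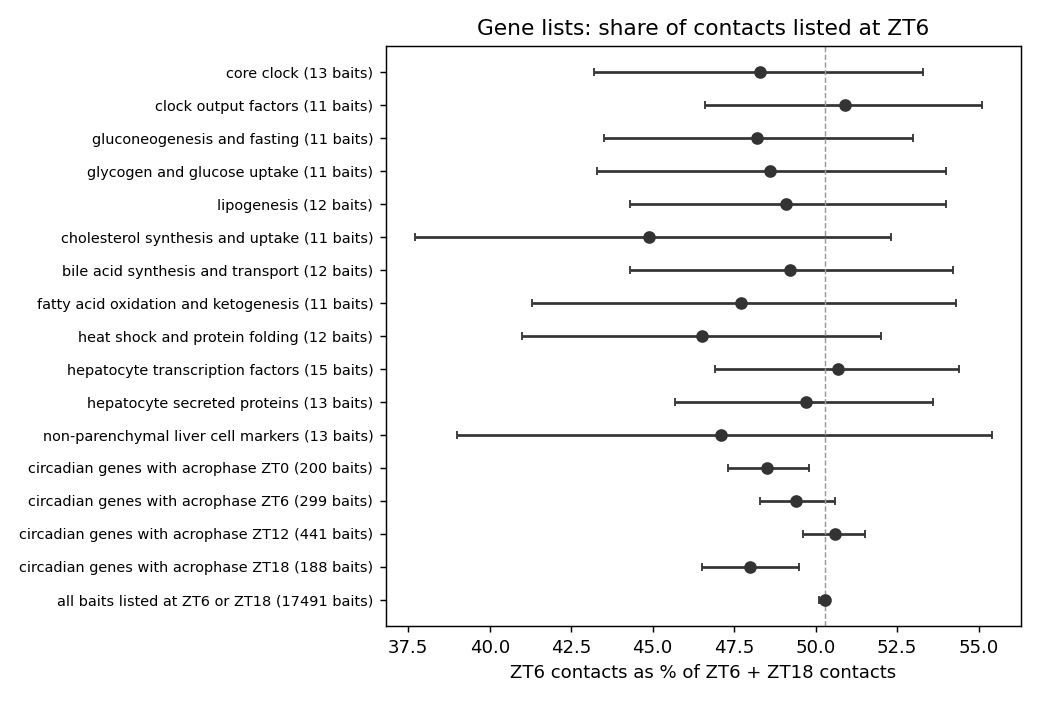
Contacts listed at ZT6 as a percentage of ZT6 plus ZT18 contacts (x axis) for each gene list, with the number of baits; bars are 95% Wilson intervals for counting error and the dashed line is the 50.3% of all baits. Intervals of the 12 function lists include the line, and those of circadian genes with acrophase ZT0 and ZT18 lie below it, the latter turning to 51.7% in the other order of timepoints.

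Circadian genes were taken from the list that the study derived from RNA of the same experiment, so they are no independent choice. The annotation held 1253 of the 1254 genes, and 1135 started on a bait. Genes whose RNA was highest at ZT18 held 48.0% (46.5 to 49.5) of their contacts at ZT6, with 58 baits having more contacts at ZT6, 101 more at ZT18 and 29 equal numbers. That share was 51.7% in the other order of timepoints, on the opposite side. Genes highest at ZT6 held 49.4% (48.3 to 50.6), with 116, 121 and 62. Genes highest at ZT0 and ZT12 held 48.5% (47.3 to 49.8) and 50.6% (49.6 to 51.5). Median bait GC content was 49.6%, 48.4%, 49.8% and 48.6% for acrophases ZT18, ZT6, ZT0 and ZT12, beside 47.3%. Of all circadian baits with 10 contacts at ZT6, 8 of 482 or 1.66% met the rule there, beside 3.08% of all baits, and 18 of 484 or 3.72% met it at ZT18, beside 3.71%.

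Of the genes with acrophase ZT6, none of 125 baits met the rule at ZT6, and 6 of 125 or 4.80% met it at ZT18, beside 3.71% of all baits. These 6 were Arsa (5 against 10 contacts at ZT18) and Arsg (5 against 13), both sulfatases of lysosomes, Csnk1g2, a casein kinase (7 against 14), Mark2, a kinase of cell polarity (8 against 24), Odf3b (5 against 11) and Osgin1 (4 against 10). In the other order of timepoints all 6 would have more contacts at ZT6, as with Mark2, 21 against 8. From a score of 7, Osgin1 had 2 contacts at ZT6 and 0 at ZT18, while the others still had more at ZT18. Of the genes with acrophase ZT18, 3 of 78 or 3.85% met it at ZT6, beside 3.08%, and 3 of 81 or 3.70% at ZT18, which is near the share over all baits. Stt3b, a subunit of the glycosylation complex (4 against 10), and Tnnc1 (0 against 11) were among those with more at ZT18. Ahcy, which hydrolyses S-adenosylhomocysteine (24 against 11), E130208F15Rik (15 against 7) and the histone gene Hist2h3c2 (20 against 6) had more at ZT6. Each of these named genes with acrophase ZT18 would turn as well in the other order.

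Motifs were counted in the central 1000 bases of the contacted fragments that were no bait. Such windows came from 5844 of 7444 fragments of ZT6-only contacts and 4330 of 5668 of ZT18-only contacts. The other fragments are not in these shares. The E-box was in 11.4% (10.6 to 12.3) of the windows of ZT6-only contacts and 13.0% (12.0 to 14.0) of those of ZT18-only contacts. Over all such windows of either list it was in 12.2%. The D-box was in 16.6% (15.6 to 17.5) and 14.7% (13.7 to 15.8), beside 15.9%. The ROR element core TAGGTCA was in 10.2% (9.48 to 11.0) and 8.64% (7.84 to 9.51), beside 9.80%. The CTCF core CCANNAGGG was in 13.2% (12.4 to 14.1) and 15.2% (14.2 to 16.3), beside 13.8%. For TCAAGGTCA, of Nr5a2, the shares were 2.69% and 3.12%, beside 2.81%, and for CAAAGTCCA, of Hnf4a, 1.56% and 1.41%, beside 1.49%. All 6 were sought on both strands. The GC content of the fragments also differed between ZT6-only and ZT18-only contacts, as given above, and its part in these shares was not tested.

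Scores of the shared contacts were alike in the middle of their range. The median was 8.00 in both lists, the median difference -0.03 (ZT6 minus ZT18, quartiles -1.45 and 1.43), and 49.2% scored higher at ZT6. Scores differed by 5 or more for 8677 of the 106449, or 8.15%. The largest differences concentrated at a narrow range of ZT6 scores. The ZT6 list held 538 contacts with scores from 33 to 36, beside 415 from 30 to 33 and 131 from 36 to 39, whereas the ZT18 list held 318, 425 and 203. Of the 536 shared contacts from 33 to 36 at ZT6, 57 scored 50 or more at ZT18, against 5 of 317 the other way round. Gadd45g, a stress-response gene, with a fragment 375 kb away scored 35.01 at ZT6 and 107.77, 100.50 and 128.46 at ZT0, ZT12 and ZT18, and Hs1bp3 with Rhob scored 35.59 against 127.60 at ZT18. All 10 of the largest falls from ZT18 to ZT6 had ZT6 scores between 34.12 and 35.61. Some leading one-list contacts above also scored from 33 to 36. They were Ndufa6 with AC113593.1 (35.12) and Tax1bp1 with Hibadh (33.07) at ZT6, and the bait of Hjurp and Trpm8 (34.94) at ZT18.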

How the data were processed

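Per the labels and the study's methods, the authors mapped P-CHi-C reads of each pool to mm9 with HiCUP, merged the pools of a timepoint and scored fragment pairs with CHiCAGO. The deposited value is the CHiCAGO score, a number with no unit, listed from 5 upwards. Read depth was not analysed here, so a difference in depth between timepoints cannot be told apart from a difference in contacts. The authors' edgeR comparison of reads was not used.

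Pairs were taken as unordered. Of 129886 listed fragments, 129886 began at a HindIII cut of mm9. Genes were placed by GENCODE M1 starts on fragments. Strong contacts scored 7 or more. A bait was higher with 10 contacts and 2-fold the share of the other list. The text names the 10 leading baits and pairs in each direction, baits with 5 contacts against 0, core clock genes, other list members past the rule or differing by 5 contacts, and circadian genes with acrophase ZT6 or ZT18 past the rule. Some items that this rule names are not reported here. The members and lists were chosen with earlier results of these data known. Lamb2 and the pairs of largest score difference were chosen after their values were seen, as were pair partners named for a bait. Scripts (Python 3.11.15, numpy 2.4.6, pandas 2.3.3, scipy 1.17.1, pysam 0.24.0) were tested on simulated data. The alternatives changed the score and contact minimums, the matching of neighbouring fragments, the distance measure, the motif window and the order of timepoints.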

Additional observations from a re-analysis of the deposited data

How the results depend on the processing

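No paired analysis was possible because each timepoint entered as 1 merged list, which also left no replicate to omit. Of 89 alternative values, 38 stayed within the interval of the reported share or within 1.5 times its count. Shared contacts (53.3%) were 54.5% at a score of 7, 55.3% at 10, 85.5% with a tolerance of 10 kb and 53.6% in the other order of timepoints. Strong ZT6-only contacts (9259) numbered 21076 from a score of 6, 874 from 10, 2018 with no neighbour within 10 kb, 2808 if listed at no other time and 5472 with both fragments in the other list, an alternative chosen after seeing the data. Strong ZT18-only contacts (7749) numbered 18915, 587, 1722 and 1955 under the first 4. Baits higher at ZT6 (180) numbered 86 with scores of 7, 40 with 20 contacts, 511 with 5 and 116 with neighbouring fragments merged, and those at ZT18 (214) 136, 42, 622 and 69, so that merging turned which time had more, as did raw contact numbers (257 and 214). From a score of 10, ZT6-only contacts were listed at ZT0 and ZT12 in 68.9% and 66.4%, and ZT18-only contacts in 70.2% and 75.6%. With a tolerance of 10 kb these were 85.8%, 85.1%, 86.3% and 87.9%. Median distances became 285 and 232 kb from a score of 10, and 225 and 188 kb as gaps between fragments. Promoter-promoter shares became 22.2% and 31.2% from a score of 10. In the other order of timepoints, the ZT6 share was 55.0% for core clock, 54.7% for gluconeogenesis, 57.5% for cholesterol and 51.7% for circadian genes with acrophase ZT18, all on the opposite side of all baits (49.7%), as were 11 of the 14 lists examined. Strong ZT6-only and ZT18-only contacts numbered 7635 and 8952 in that order. Over whole fragments, motif shares at ZT6 and ZT18 were 37.0% and 31.8% (D-box), 25.1% and 23.3% (ROR core), 8.06% and 8.33% (Nr5a2), 4.53% and 4.50% (Hnf4a) and 31.3% and 33.7% (CTCF). The E-box was in 29.1% at ZT6 and under 1 percentage point more at ZT18. The cause of these moves was not tested.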

Other observations

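The concentration of ZT6 scores from 33 to 36 had a counterpart in the other lists. Contacts scoring from 35 to 36 and from 36 to 37 numbered 117 and 56 at ZT0, 171 and 54 at ZT6, 155 and 67 at ZT12, and 101 and 75 at ZT18, so each list dropped past 36 and the drop was largest at ZT6. Mtnr1a, a melatonin receptor gene, with a fragment 167 kb away scored 35.08 at ZT6 and 74.78, 84.33 and 87.09 at ZT0, ZT12 and ZT18.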
